A study of Mus musculus with 14 samples.

Results

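Solute carriers, ABC transporters and transport ATPases made up 40 of the 1324 genes that the authors' deposited table lists as differing between mammary tumours of mice whose mothers ate genistein and tumours of mice whose mothers did not. They are the listed genes whose mouse symbol begins with Slc, Slco or Atp and a digit, or with Abc, a letter from a to g and a digit. They comprise 29 Slc genes, 2 Slco genes, 2 Abc genes and 7 Atp genes, out of 537 symbols of this form in the gene annotation. The list as a whole holds 7.19% of the 18425 genes that its adjusted p-values imply were tested. How many of the 537 were tested is not given, so 40 of 537 cannot be set beside that share. Genes of this form outside that table were not analysed here for RNA. Tumours came from FVB mice of about 25 weeks that carry the SV40 Tag transgene, an oncogene of simian virus 40. Mothers in the maternal GE group ate 250 mg/kg genistein, a soy isoflavone that binds estrogen receptors, from 4 weeks of age until weaning, while mothers in the control group ate control diet. Offspring of both groups carried the transgene and ate control diet. The promoter of the transgene is not given in the labels.

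RNA was sequenced from 4 maternal GE and 3 control tumours. Reduced representation bisulfite sequencing (RRBS), which reads methylation of CpG sites in restriction fragments rich in CpG, was run on 4 maternal GE and 3 control DNA samples. Litters are not given in the labels, so every p-value reflects only how much these samples differ among themselves, which may be technical. The RNA values are the authors' fold changes and mean levels over all libraries, so levels per tumour are not shown for RNA. The maternal GE libraries held 113967 to 210974 RRBS reads at the listed CpG sites and the control libraries 203672 to 226194. At the CpG sites of transporter genes the median coverage was 17.5 to 34.0 reads in maternal GE libraries and 37.0 to 43.5 reads in control libraries, with maternal GE replicate 4 the shallowest.

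The header of the RNA table names no numerator for its fold change. A positive value is read here as higher in maternal GE tumours, because chromosomes on which more of the other listed genes were positive had higher relative RRBS coverage in maternal GE than in control libraries (Pearson's r = 0.913, Spearman's rho = 0.920 over 20 chromosomes). The chromosomes share the same libraries, and r lay between 0.802 and 0.915 when any 1 library was left out. Read the other way, each RNA direction below would be reversed.

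Solute carriers are membrane proteins that move ions, nutrients and metabolites down or against gradients, often by coupling one solute to another. ABC transporters and P-type ATPases spend ATP directly, the P-type pumps to move cations or to flip phospholipids between the leaflets of a membrane, and the vacuolar ATPase acidifies organelles or, in some epithelia, the cell surface. In mammary epithelium such proteins supply amino acids, fatty acids, phosphate and zinc for milk, and in tumours they carry fuel in and lactate out.

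The sequences below are the 250 bases before the start of 6 transporter genes, from RefSeq on build GRCm38.p6, written 5′ to 3′ with CpG dinucleotides in capitals. Atp11a, Slc24a2, Slc1a4 and Slc25a14 are shown because listed CpG sites or a region of altered methylation are annotated to them, and Atp13a5 and Slc46a2 because they had the largest positive folds among the transporter genes. The windows are chr8:12756766-12757015 (plus strand) for Atp11a, chr4:87230541-87230790 (minus strand) for Slc24a2, chr11:20332714-20332963 (minus strand) for Slc1a4, chrX:48623198-48623447 (plus strand) for Slc25a14, chr16:29378733-29378982 (minus strand) for Atp13a5 and chr4:59915057-59915306 (minus strand) for Slc46a2. Where the promoter table gives several starts, as for Slc24a2 with 2 and Slc25a14 with 3, its start farthest 5′ was used. The gene annotation begins farther 5′ for Slc24a2, Atp13a5 (by 34 bases) and Slc25a14 (by 30 bases), so the end of these windows lies inside the annotated gene. The annotation begins farther 5′ for 12 of the 31 genes with a window. For Slc23a3, Slc27a3, Atp6v1c2, Slc19a1 and Slc25a18 it does so by more than 250 bases, and the whole window lies inside the annotated gene.
Atp11a: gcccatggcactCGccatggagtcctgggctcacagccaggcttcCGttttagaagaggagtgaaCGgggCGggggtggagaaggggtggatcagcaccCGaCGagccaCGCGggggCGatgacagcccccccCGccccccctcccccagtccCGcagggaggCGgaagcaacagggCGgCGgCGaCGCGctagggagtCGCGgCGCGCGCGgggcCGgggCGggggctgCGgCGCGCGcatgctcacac
Slc24a2: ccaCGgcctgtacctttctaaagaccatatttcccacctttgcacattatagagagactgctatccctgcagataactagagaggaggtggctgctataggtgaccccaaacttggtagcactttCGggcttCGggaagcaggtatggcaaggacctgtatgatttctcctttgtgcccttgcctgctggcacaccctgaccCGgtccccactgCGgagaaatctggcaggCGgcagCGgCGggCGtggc
Slc1a4: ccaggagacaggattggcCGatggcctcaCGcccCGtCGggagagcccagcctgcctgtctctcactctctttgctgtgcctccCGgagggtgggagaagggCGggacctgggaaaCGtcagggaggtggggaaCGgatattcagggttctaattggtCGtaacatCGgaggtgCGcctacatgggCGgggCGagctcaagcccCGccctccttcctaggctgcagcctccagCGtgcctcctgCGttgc
Slc25a14: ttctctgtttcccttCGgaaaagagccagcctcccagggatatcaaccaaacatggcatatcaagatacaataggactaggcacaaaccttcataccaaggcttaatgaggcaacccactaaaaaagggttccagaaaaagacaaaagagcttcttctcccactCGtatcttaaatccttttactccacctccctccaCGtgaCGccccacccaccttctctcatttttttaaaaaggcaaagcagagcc
Atp13a5: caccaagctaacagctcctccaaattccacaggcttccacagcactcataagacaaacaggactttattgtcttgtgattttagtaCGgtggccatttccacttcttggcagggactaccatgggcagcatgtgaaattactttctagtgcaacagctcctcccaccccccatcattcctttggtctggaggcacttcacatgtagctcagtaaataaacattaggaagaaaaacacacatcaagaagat
Slc46a2: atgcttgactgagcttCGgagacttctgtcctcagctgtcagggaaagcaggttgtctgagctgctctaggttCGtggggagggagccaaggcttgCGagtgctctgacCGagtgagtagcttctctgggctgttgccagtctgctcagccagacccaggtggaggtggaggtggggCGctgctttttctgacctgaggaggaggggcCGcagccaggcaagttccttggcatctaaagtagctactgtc

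These windows hold 29 CpGs in Atp11a, 16 in Slc1a4, 9 in Slc24a2, 6 in Slc46a2, 4 in Slc25a14 and 1 in Atp13a5. RefSeq promoter windows were matched for 31 of the 40 transporter genes, with a median of 9 CpGs, against 6 over all 27025 windows of the table. The 17 higher genes with a window had a median of 9 CpGs and the 14 lower genes 15. No listed CpG site or region annotated to these 31 genes fell inside the gene's own window. The palindromic estrogen response element, GGTCA and TGACC with 3 bases between them, was found in 0 of the 31 windows and in 0.0629% of all windows. TGANTCA is a looser form of the AP-1 motif, with any base in place of the C or G at its middle. It was found in 1 window on either strand (Slc38a7, as TGATTCA), against 6.85% of all windows. TGATGNAA, the amino acid response motif, was found in 1 (Slc23a3, whose window lies inside the annotated gene), against 3.53%. TGACNNNGC, the core of the antioxidant response element, was found in 4 windows (Slc13a3, Slc16a1, Slc38a2 and Slc46a2), which is 12.9% of the 31, against 10.1% of all windows.

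Transporter genes changed in both directions. By the authors' deposited table, 22 of the 40 were higher in maternal GE tumours and 18 were lower. The higher share was 55.0%, against 58.0% of the 1324 listed genes. The substrate classes below hold 1 to 8 genes each, and their splits are read beside 58.0% higher and 42.0% lower over all listed genes. Median log2 fold changes in the authors' deposited table were 1.76 among the higher transporter genes and -1.31 among the lower ones, against 1.68 and -1.47 over all listed genes. Since every listed gene passed a DESeq adjusted p of 0.05, these counts describe how the listed transporter genes divide and do not say how often transporter genes were called. At an edgeR false discovery rate (FDR) under 0.05 the authors' deposited table kept 28 of the 40 (16 higher and 12 lower), or 70.0%, against 70.5% of all listed genes. With the DESeq adjusted p required to be under 0.01, 22 of the 40 remained (13 higher and 9 lower) by the authors' deposited table, while the share over all listed genes was 52.7%. The sign was the same with DESeq and edgeR for all 40 in the authors' deposited table. Atp13a5, Atp1b1, Atp6v0a4, Atp6v1c2, Slc16a6 and Slco1a5 overlap another protein-coding gene, none of them listed, and the use of strand in counting is not stated, so reads of the overlap may be counted for either gene. In bulk tumour RNA, fewer cells of a type and less RNA per cell cannot be told apart.

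**Figure D1:**
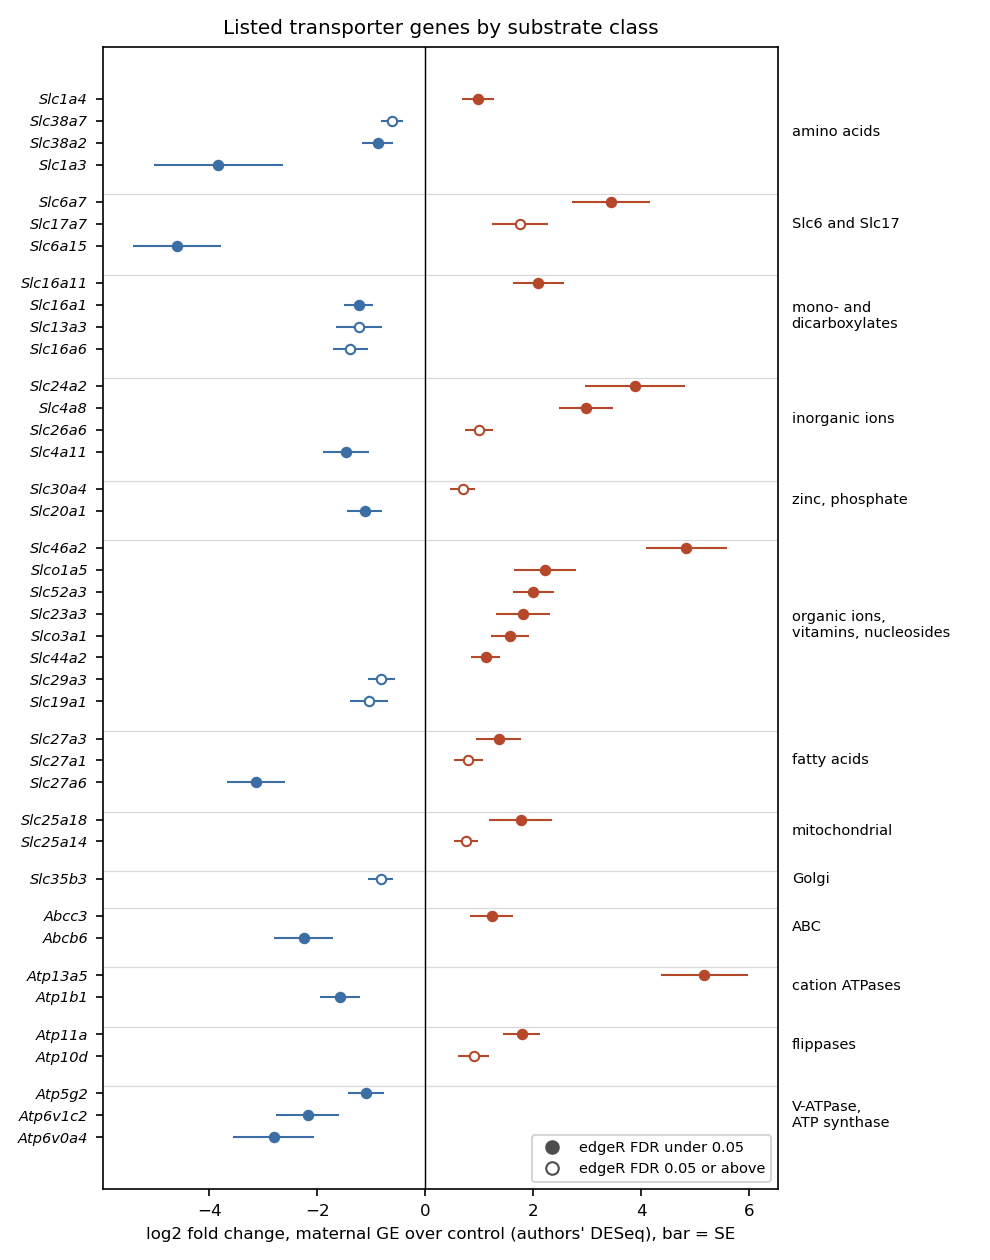
Log2 fold change of each of the 40 listed transporter genes (x axis, maternal GE over control, DESeq values of the authors' deposited table, bars are the SE), grouped by substrate class. Filled points have an edgeR FDR under 0.05; 22 genes lie to the right of 0 and 18 to the left, and the 3 vacuolar ATPase and ATP synthase genes all lie to the left.

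Genes for organic ions, vitamins and nucleosides made the largest class, with 6 higher and 2 lower. Slc46a2, a solute carrier known from thymic stromal cells, had the second largest positive fold of the 40, which the authors' deposited table puts at a log2 fold change of 4.84 (SE 0.75) and a mean normalised count of 103, with a DESeq adjusted p of 2.65e-08. Slco1a5, an organic anion carrier, stood at 2.23 (SE 0.57) on the log2 scale with a mean count of 853 and a DESeq adjusted p of 0.00331 in the authors' deposited table. It lies among similar Slco1a genes, and reads that fit several of them could be split between copies. Slc52a3, a riboflavin transporter, had a log2 fold change of 2.01 (SE 0.39), a mean count of 254 and a DESeq adjusted p of 1.87e-05 by the authors' deposited table. Slc23a3, a relative of the ascorbate transporters, followed in the authors' deposited table at 1.81 (SE 0.50), with a mean count of 359 and a DESeq adjusted p of 0.00813. Slco3a1, another organic anion carrier, had 1.57 (SE 0.35) on the log2 scale, a mean count of 1923 and a DESeq adjusted p of 0.000356 in the authors' deposited table. The choline transporter-like gene Slc44a2 had the highest mean count of the class (4326, as all counts here not scaled to gene length) and a log2 fold change of 1.12 (SE 0.27) in the authors' deposited table.

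Both lower genes of this class missed the edgeR threshold. Slc19a1, the reduced folate carrier, had a log2 fold change of -1.04 (SE 0.36, edgeR FDR 0.154) in the authors' deposited table. Slc29a3, a nucleoside transporter of lysosomes, had -0.81 (SE 0.25, edgeR FDR 0.0870) by the authors' deposited table.

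Carriers of inorganic ions included 3 higher genes and 1 lower gene. Slc24a2, an exchanger that moves calcium out of the cell against sodium and potassium and is best known from cones and neurons, had a log2 fold change of 3.89 (SE 0.93), a mean normalised count of 100.2 and a DESeq adjusted p of 0.00112 in the authors' deposited table. Slc4a8, a sodium-driven chloride bicarbonate exchanger, had 2.97 (SE 0.50) on the log2 scale at a mean count of 466, with a DESeq adjusted p of 4.89e-07 by the authors' deposited table. Slc26a6, an anion exchanger for chloride, oxalate and bicarbonate, stood in the authors' deposited table at 1.00 (SE 0.26), with an edgeR FDR of 0.301 although its DESeq adjusted p was 0.00419. Slc4a11, a carrier of the corneal endothelium, was lower in the authors' deposited table, at -1.47 (SE 0.43), with a mean count of 959 and a DESeq adjusted p of 0.0145. The sodium pump subunit Atp1b1, the beta subunit that brings the Na,K-ATPase to the membrane, was also lower, at -1.58 (SE 0.37) with a mean count of 4011 and a DESeq adjusted p of 0.000954 in the authors' deposited table.

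All 3 listed subunits of the vacuolar ATPase and the ATP synthase were lower, where 42.0% of all listed genes were lower. Atp6v0a4, a membrane subunit isoform known from acid-secreting cells of the kidney, had a log2 fold change of -2.81 (SE 0.74), a mean count of 729 and a DESeq adjusted p of 0.00453 in the authors' deposited table. Atp6v1c2, a cytosolic subunit isoform, had -2.18 (SE 0.59) with a mean count of 2027 and a DESeq adjusted p of 0.00576 by the authors' deposited table. Atp5g2, which encodes the c subunit of the mitochondrial ATP synthase, had -1.10 (SE 0.33) and a mean count of 1264 in the authors' deposited table. The 3 genes lie on chromosomes 6, 12 and 15.

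The remaining ATPases and the ABC transporters were mixed. Atp13a5, a P-type ATPase of the P5 group, had the largest positive fold of the 40, a log2 value of 5.17 (SE 0.80) or 36.1-fold, but a mean count of 42.1, with a DESeq adjusted p of 2.90e-08 in the authors' deposited table. Atp11a, a flippase that returns phosphatidylserine to the inner leaflet, had the highest mean count of the 40 (17442, not scaled to gene length), and its log2 fold change was 1.79 (SE 0.34) with a DESeq adjusted p of 1.12e-05 in the authors' deposited table. Atp10d, another flippase gene, stood at 0.90 (SE 0.29) with a mean count of 907, a DESeq adjusted p of 0.0285 and an edgeR FDR of 0.0948 in the authors' deposited table. Abcb6, an ABC transporter linked to porphyrins, had a log2 fold change of -2.25 (SE 0.55), a mean count of 61.5 and a DESeq adjusted p of 0.00147 by the authors' deposited table. Abcc3, which exports organic anions and conjugates, had 1.23 (SE 0.40) and a mean count of 794 in the authors' deposited table.

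In the amino acid families Slc1 and Slc38, 3 of 4 genes were lower, and in the families Slc6 and Slc17, which also carry amino acids, 1 of 3 was lower. Slc6a15, a sodium-coupled carrier of branched-chain and other neutral amino acids, had the largest negative fold of the 40, -4.60 (SE 0.82) on the log2 scale or 24.2-fold lower, with a mean count of 142 and a DESeq adjusted p of 2.09e-06 in the authors' deposited table. Slc1a3, a glutamate and aspartate carrier, followed at -3.84 in the authors' deposited table, with the largest SE of the 40 (1.20), a mean count of 326 and a DESeq adjusted p of 0.0232. Slc38a2, the glutamine carrier of system A that cells induce on amino acid shortage, had a mean count of 7879 and a log2 fold change of -0.88 (SE 0.29, DESeq adjusted p 0.0370) in the authors' deposited table. Slc38a7, a lysosomal glutamine carrier, had -0.62 (SE 0.21), a mean count of 636, a DESeq adjusted p of 0.0365 and an edgeR FDR of 0.309 by the authors' deposited table. Slc1a4, an exchanger of small neutral amino acids, was higher than in controls, at 0.97 (SE 0.30) with a mean count of 1133 and a DESeq adjusted p of 0.0184 in the authors' deposited table.

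Slc6a7, a proline carrier of nerve terminals, had a log2 fold change of 3.45 (SE 0.72), a mean count of 546 and a DESeq adjusted p of 0.000100 in the authors' deposited table. Slc17a7, the vesicular glutamate transporter of excitatory neurons, had 1.75 (SE 0.52), a mean count of 158, a DESeq adjusted p of 0.0149 and an edgeR FDR of 0.0744 by the authors' deposited table. Of the neuron and glia markers, Gria1 had a log2 fold change of 3.57 and Sox10 one of -2.89 by the authors' deposited table. Their part in the values of Slc6a7 and Slc17a7 was not tested.

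Carriers of lactate and other carboxylates were lower in 3 of 4 cases. Slc16a1, the monocarboxylate transporter MCT1 that moves lactate and ketone bodies, had a log2 fold change of -1.23 (SE 0.27), a mean count of 1172 and a DESeq adjusted p of 0.000278 in the authors' deposited table. Slc16a6, which exports ketone bodies from the liver in zebrafish, had -1.39 (SE 0.32), a mean count of 169 and a DESeq adjusted p of 0.000730 by the authors' deposited table, but an edgeR FDR of 0.0733. Slc13a3, a sodium-coupled dicarboxylate carrier, had -1.23 (SE 0.42), a mean count of 71.4, a DESeq adjusted p of 0.0470 and an edgeR FDR of 0.202 in the authors' deposited table. Slc16a11, a monocarboxylate transporter relative, was higher at 2.09 (SE 0.47), with a mean count of 160 and a DESeq adjusted p of 0.000414 by the authors' deposited table.

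Fatty acid carriers of the Slc27 family divided. Slc27a6 had a log2 fold change of -3.13 (SE 0.54), a mean count of 89.3 and a DESeq adjusted p of 7.57e-07 in the authors' deposited table. Slc27a3 had 1.36 (SE 0.42) and a mean count of 924, with a DESeq adjusted p of 0.0186 by the authors' deposited table. Slc27a1, which takes up long-chain fatty acids in fat and muscle, had 0.80 (SE 0.27) and a mean count of 4205, while its edgeR FDR was 0.0639 in the authors' deposited table. None of the 4 adipocyte markers (Adipoq, Plin1, Fabp4 and Cidec) is listed, and their levels were not analysed here.

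The metal, phosphate, mitochondrial and Golgi carriers complete the set. Slc20a1, a sodium-phosphate cotransporter, had a log2 fold change of -1.12 (SE 0.32), a mean count of 6524 and a DESeq adjusted p of 0.0115 in the authors' deposited table. Slc30a4, the zinc transporter whose loss leaves mouse milk poor in zinc, had 0.70 (SE 0.23) and an edgeR FDR of 0.180 by the authors' deposited table. Of the mitochondrial carriers, the glutamate carrier Slc25a18 had 1.77 (SE 0.59) at a mean count of 24.2, the lowest of the 40, in the authors' deposited table. Slc25a14, a carrier of the uncoupling protein family, had 0.76 (SE 0.22), a mean count of 381, a DESeq adjusted p of 0.0140 and an edgeR FDR of 0.317 by the authors' deposited table. Slc35b3, which carries the sulphate donor PAPS into the Golgi, had -0.83 (SE 0.23) and an edgeR FDR of 0.179 in the authors' deposited table.

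**Figure D2:**
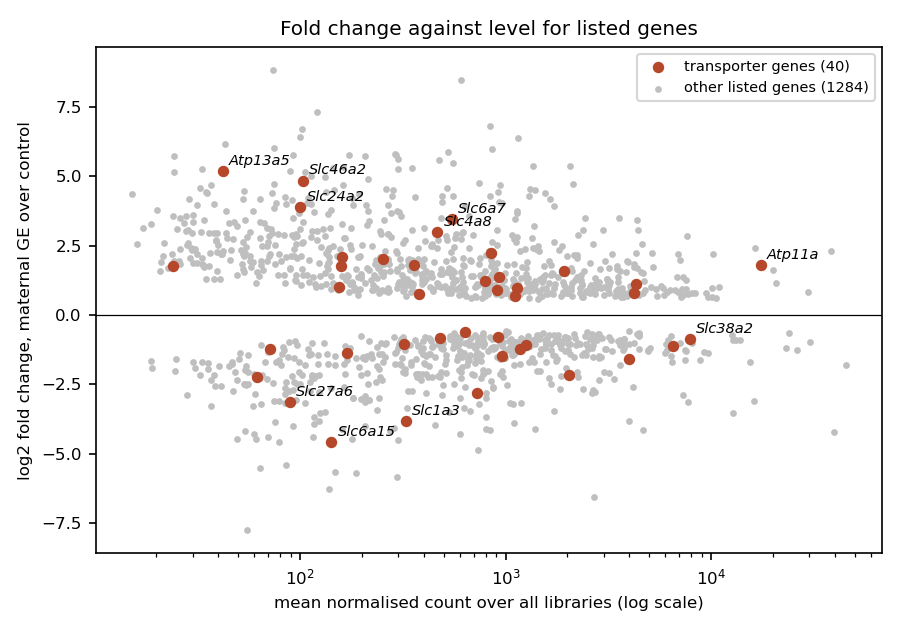
Log2 fold change (y axis, maternal GE over control) against the mean normalised count over all libraries (x axis, log scale) in the authors' deposited table, with the 40 transporter genes in colour and the 1284 other listed genes in grey. Atp11a stands farthest right at 17442, and Atp13a5 and Slc46a2 stand highest of the transporter genes at 5.17 and 4.84 at mean counts of 42.1 and 103.

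Genes that work with transporters but carry other names were also listed, and 13 of 86 such genes in 7 lists appear in the authors' deposited table, with 4 of them higher and 9 of them lower. Over all genes 7.19% are listed, and 58.0% of those are higher. Steap4, a metalloreductase, had the largest positive fold of them, by a log2 fold change of 3.43 (SE 0.49) in the authors' deposited table. The iron genes Trf at -3.18 and Cybrd1 at -2.98 and the reductase Steap1 at -2.50 were lower by the authors' deposited table. The water channels split, with log2 fold changes of 2.64 for Aqp3 and -2.33 for Aqp5 in the authors' deposited table. Kinases that set chloride cotransporters were Wnk2 at -2.25, Stk39 at -1.46 and Oxsr1 at 0.81 by the authors' deposited table. Calcium partners were Casq2 at 2.74, Itpr2 at -1.44 and Orai1 at -0.99, and the major facilitator Mfsd12 stood at -0.83, in the authors' deposited table. None of the 7 FXYD regulators of the sodium pump and none of 3 ABC proteins with other names were listed.

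Of 38 markers of cell types that a mammary tumour can hold, 10 are listed and 28 are not, against 7.19% of tested genes listed. The luminal keratin Krt18 had the highest mean count of these (23160) with a log2 fold change of -1.18 in the authors' deposited table, while Krt8, Krt19, Epcam and Cdh1 are not listed. Of the basal epithelial markers, Krt5 and Trp63 were at 4.49 and 4.73 on the log2 scale by the authors' deposited table, and Krt14 and Acta2 are not listed. The plasma cell gene Igha stood at 5.75, the T cell gene Trbc2 at 4.08, the muscle gene Tnni2 at 3.74, the macrophage gene Arg1 at 1.88 and the endothelial gene Flt1 at 1.56 in the authors' deposited table. Each of these 5 is the sole listed marker of its type, and Jchain, Cd3e, Cd8a, Ckm, Acta1, Myh4, Cd68, Adgre1, Slc11a1, Pecam1 and Cdh5 are not listed. Summed marker levels per group were not used here, and the part of these cells in the transporter values was not tested.

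The sign of a transporter gene's fold often followed its chromosome. Of the 40, 28 (70.0%) had the sign of most other listed genes on their chromosome, and 864 of 1171 other listed protein-coding genes (73.8%) did so. With the sign of the coverage difference the counts were 27 of 40 (67.5%) and 843 of 1171 (72.0%). The direction of the fold was itself read from chromosome coverage, so these last counts are not independent of that reading. On chromosome 4, where 88 of 104 other listed genes were higher and relative coverage was higher by 0.23 on the log2 scale in maternal GE libraries, both transporter genes (Slc24a2 and Slc46a2) were higher. On chromosome 9, with 98 of 113 other listed genes higher and coverage higher by 0.34, both (Slc26a6 and Slc44a2) were higher. On chromosome 15, with 62 of 80 others lower and a coverage difference of -0.37, Slc1a3, Slc38a2 and Atp5g2 were lower, and Slc4a8 was higher against them. On chromosome 10, with 35 of 53 others lower and a coverage difference of -0.25, Slc6a15, Slc19a1 and Slc29a3 were lower. Atp11a and Slc27a1 lie on chromosome 8, where 55 of 70 others were higher and coverage was higher by 0.26, and Slc38a7 was lower there. On chromosome 2, with 83 of 100 others lower and a coverage difference of -0.25, Slc13a3, Slc20a1 and Slc4a11 were lower, while Slc30a4 and Slc52a3 were higher. On chromosome 7, with 41 of 62 others lower and a coverage difference of -0.11, both transporter genes (Slc17a7 and Slco3a1) were higher. Among the 8 genes with the largest positive or negative folds labelled in the plot by chromosome coverage, Slc4a8 and Slc27a6 stood against the sign of coverage. The part of chromosome copy number in the transporter values was not tested.

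**Figure D3:**
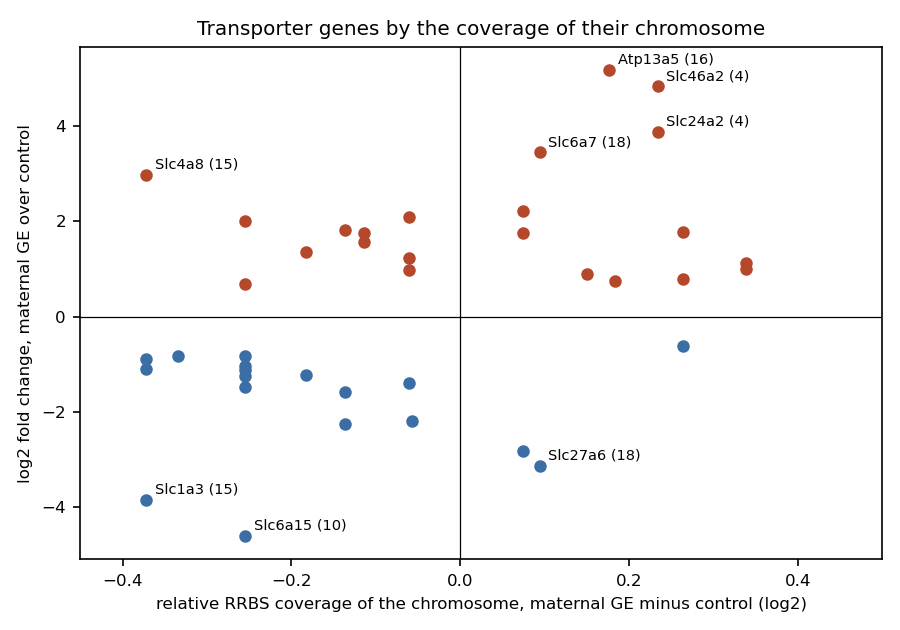
Log2 fold change of each transporter gene (y axis, maternal GE over control) against the relative RRBS coverage of its chromosome (x axis, maternal GE minus control, log2), with chromosome numbers beside genes of large fold. Of the 40 points, 27 have a fold and a coverage difference of the same sign; the direction of the y axis was itself read from chromosome coverage.

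The RRBS table lists 4327 CpG sites, of which 22 are annotated to 9 of the transporter genes. A listed site was annotated to 22.5% of the 40 transporter genes and to 23.1% of the 1284 other listed genes, and a site inside the gene to 15.0% and 13.2%. All listed sites differed by 25.0 percentage points or more on pooled reads, with q-values up to 0.00959, computed from the same reads, so the library levels and tests below are not independent of that selection and are read beside the same share over all listed sites. Of the 22 sites 11 were higher and 11 lower in maternal GE libraries, and 50% lower compares with 46.9% over all listed sites. A quasi-binomial model, which sets the group difference against the spread between libraries, gave an unadjusted p under 0.05 at 15 of the 22 (68.2%), against 31.6% of all listed sites. Levels of the groups did not overlap at 12 of 22 (54.5%), against 27.8%. After Benjamini-Hochberg adjustment over all listed sites 0 of the 22 passed, with a lowest adjusted p of 0.103, and 0.0462% of all listed sites passed. The smallest p that the two-sided exact permutation test allows with 4 and 3 libraries is 0.0571, so that test cannot reach 0.05 at any site. Neighbouring CpGs share reads, and when sites within 1000 bases were taken as 1 cluster, 11 of 15 clusters of transporter genes (73.3%) held a p under 0.05, against 1202 of 3539 clusters (34.0%).

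These shares rest in part on Atp11a. Without its 6 sites, 9 of 16 sites had a p under 0.05 (56.2%) and 6 of 16 had groups that did not overlap (37.5%). Leaving out any 1 library kept 7 of the 15 calls throughout (46.7%), and the other 8 were lost without some library. Over all listed sites 483 of 1369 calls (35.3%) were kept in the same way.

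Atp11a carried 6 listed sites, all with p under 0.05 and with groups that did not overlap. The 5 intronic sites lie 4.2 to 6.4 kb past the start and were less methylated in maternal GE tumours. Close neighbours among them can share reads and are not separate evidence: 12761209 with 12761226, and 12763421 with 12763444 and 12763452. At chr8:12763444 (GRCm38), the site with the lowest p of the 22, methylation was 62.1%, 55.3%, 56.9% and 47.1% in the maternal GE libraries, against 100%, 100% and 94.2% in the control libraries. The levels rest on 66, 47, 51 and 17 reads in maternal GE libraries and on 52, 38 and 69 reads in control libraries. Every maternal GE library was below every control library there, and the Wilson 95% interval of the highest maternal GE library, 50.1% to 72.9%, lay below that of the lowest control library, 86.0% to 97.7%. The means were 55.3% ± 6.24 in maternal GE and 98.1% ± 3.35 in control libraries (SD, n = 4 and 3), a difference of -42.7 percentage points. The quasi-binomial p was 0.000464 and the adjusted p 0.103.

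At chr8:12761209 of Atp11a, methylation was 7.58%, 0%, 27.6% and 40% in maternal GE libraries, against 75%, 100% and 70.6% in control libraries. The maternal GE level of 0% comes from 34 reads, which allow up to 8.82%, and the 40% from 10 reads. The groups were far apart although the maternal GE libraries ranged widely, with means of 18.8% ± 18.3 and 81.9% ± 15.9 (SD, n = 4 and 3), and the quasi-binomial p was 0.00891 by the fit over all sites. The neighbour at chr8:12761226 had 18.2%, 5.88%, 31.0% and 78.9% in maternal GE libraries, against 95.2%, 100% and 100% in control libraries. The site at chr8:12763421 had 39.4%, 46.8%, 68.0% and 0% in maternal GE libraries, against 100%, 100% and 82.6% in control libraries. Its level of 0% comes from 17 reads, which allow up to 17.6%. The site at chr8:12763452 had 71.2%, 55.3%, 51.0% and 64.7% in maternal GE libraries, against 92.3%, 81.6% and 94.2% in control libraries. At these 3 sites, too, no maternal GE library reached the lowest control library. Their quasi-binomial p-values were 0.0150, 0.0207 and 0.00647. Without control replicate 2 the p at 12761226 was 0.0511, while the p at 12763421 was 0.0611 without maternal GE replicate 1 and 0.0554 without control replicate 1. The sixth site, chr8:12898699, lies 30.0 kb past the gene end and went the other way, with 100%, 98.2%, 100% and 100% in maternal GE libraries, against 78.6%, 0% and 45.9% in control libraries (p = 0.00558 by the quasi-binomial model). The lower methylation of the intronic sites stood beside a higher Atp11a level in RNA, a log2 fold change of 1.79 in the authors' deposited table. Whether the 2 are linked was not tested.

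**Figure D4:**
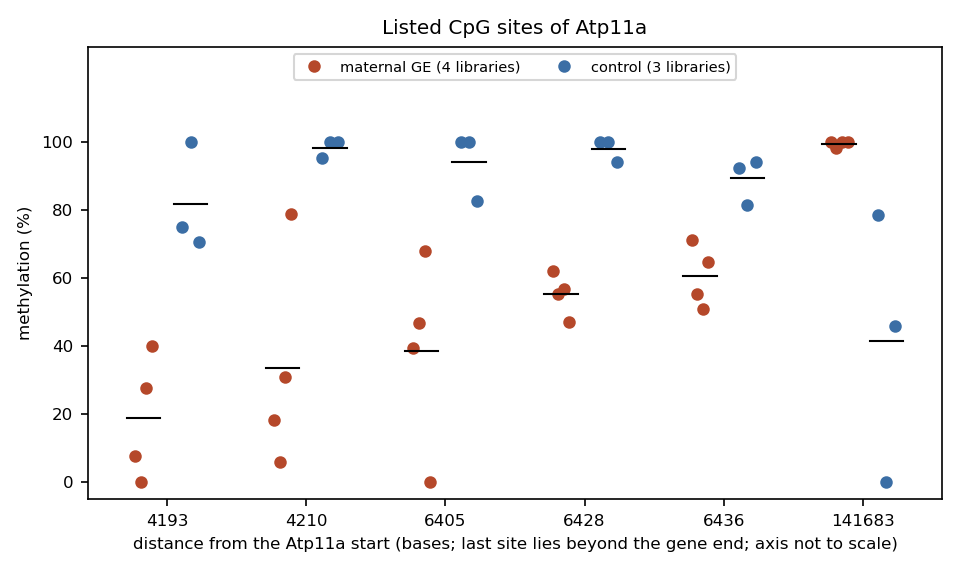
Methylation in percent (y axis) at the 6 listed CpG sites of Atp11a, placed in order of their distance from the gene start in bases (x axis, not to scale), with 1 point per library, maternal GE left of control, and a bar at each group mean. Maternal GE libraries lie below control libraries at the 5 intronic sites and above them at the site beyond the gene end.

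Slc24a2 had 3 listed sites, all in introns and all more methylated in maternal GE tumours. At chr4:87119933 the maternal GE libraries had 100%, 85%, 100% and 100% methylation, against 56.5%, 25.0% and 15.4% in control libraries. The groups did not overlap, though coverage was 10 to 24 reads. Means were 96.2% ± 7.50 in maternal GE and 32.3% ± 21.5 in control libraries (SD, n = 4 and 3). The quasi-binomial p was 0.00812 and stayed under 0.05 without any 1 library. At chr4:87198321 maternal GE libraries had 76.9%, 42.9%, 81.2% and 26.7%, against 0%, 21.4% and 8.33% in control libraries. Its quasi-binomial p of 0.0463 went above 0.05 without any 1 of maternal GE replicates 1 to 3 or control replicates 1 to 3, and reached 0.117 without control replicate 3. At chr4:87119927, 6 bases from the first site, the p was 0.0847, or 0.0167 without control replicate 1, and the groups overlapped. Slc24a2 was more methylated inside the gene at 2 of 3 sites by the unadjusted p, beside a log2 fold change of 3.89 in the authors' deposited table.

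Slc1a4 had a pair of sites 63.6 kb before its start, between genes. At chr11:20396282 methylation was 54.5%, 66.7%, 47.6% and 33.3% in maternal GE libraries, against 13.0%, 0% and 5.41% in control libraries. The control level of 0% rests on 53 reads and allows up to 5.66%, while the maternal GE libraries had 11 to 21 reads. All 4 maternal GE libraries were above all 3 control libraries, with means of 50.5% ± 13.9 and 6.15% ± 6.55 (SD, n = 4 and 3). The quasi-binomial p was 0.00548, and its highest value was 0.0196 when maternal GE replicate 3 was left out. The neighbouring site at 20396293 had a p of 0.122, or 0.0306 without control replicate 1.

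Slc6a15, the gene with the largest negative fold, had 1 site, annotated between genes 99.1 kb away. At chr10:103268714 methylation was 50%, 17.9%, 28.2% and 44.4% in maternal GE libraries, against 66.0%, 68.2% and 67.9% in control libraries. The control libraries were close together and all above the maternal GE libraries, with means of 35.1% ± 14.8 in maternal GE and 67.3% ± 1.20 in control libraries (SD, n = 4 and 3). The quasi-binomial p was 0.00375, and it was 0.0190 at most when 1 library was left out. Maternal GE replicate 1 had 10 reads there, a Wilson 95% interval of 23.7% to 76.3% that takes in the control levels.

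**Figure D5:**
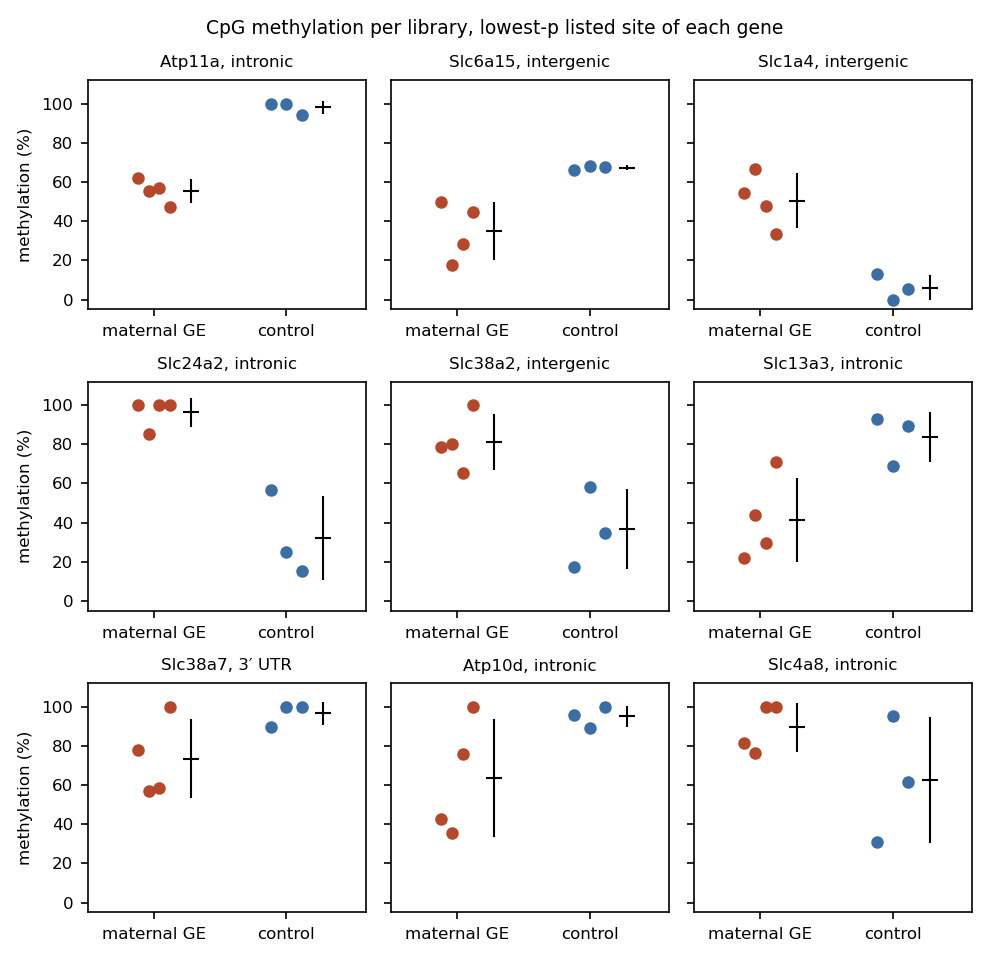
Methylation in percent (y axis) per library at the listed CpG site of lowest quasi-binomial p in each of the 9 transporter genes, with maternal GE (4 points) left of control (3 points), and the mean with SD beside each group. The groups do not overlap for Atp11a, Slc6a15, Slc1a4, Slc24a2 and Slc38a2 and overlap for Slc13a3, Slc38a7, Atp10d and Slc4a8.

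Slc38a2 had 4 sites between genes, and they differed in direction. At chr15:96737113, 37.4 kb before the start, methylation was 78.6%, 80.0%, 65.4% and 100% in maternal GE libraries, against 17.4%, 58.0% and 34.8% in control libraries. The groups did not overlap, and the quasi-binomial p of 0.0269 went above 0.05 without maternal GE replicate 1, 2 or 4 or control replicate 1 or 3, reaching 0.0688 without maternal GE replicate 2. At chr15:96963796, 264.1 kb before the start, methylation was 42.2%, 82.5%, 16.7% and 62.1% in maternal GE libraries, against 87.6%, 86.7% and 83.8% in control libraries. Its p was 0.0339, and above 0.05 without any 1 of 6 libraries (all but maternal GE replicate 2), reaching 0.0911 without maternal GE replicate 1. The other 2 sites lie within 24 bases of the first. The nearer had a p of 0.0524, or 0.0390 without maternal GE replicate 1. The farther had a p of 0.0477, which went above 0.05 without maternal GE replicate 2, 3 or 4 or control replicate 1 or 2, reaching 0.136 without maternal GE replicate 2.

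The remaining genes with sites gave weaker differences. At chr2:165427561 in an intron of Slc13a3 methylation was 22.2%, 43.8%, 29.6% and 70.8% in maternal GE libraries, against 92.9%, 69.0% and 89.3% in control libraries. The groups overlapped by 1 library, and the quasi-binomial p of 0.0398 went above 0.05 without any 1 of maternal GE replicates 1 to 3 or control replicate 1 or 3, reaching 0.110 without control replicate 3. At chr8:95836811 in the 3′ UTR of Slc38a7 methylation was 77.8%, 57.1%, 58.3% and 100% in maternal GE libraries, against 89.7%, 100% and 100% in control libraries. The overlap came from maternal GE replicate 4 with 12 reads, and the p of 0.0472 went above 0.05 without any 1 of maternal GE replicates 1 to 3 or control replicate 2 or 3, reaching 0.144 without maternal GE replicate 3. At chr15:100811150 in an intron of Slc4a8 methylation was 81.2%, 76.2%, 100% and 100% in maternal GE libraries, against 31.0%, 95.1% and 61.5% in control libraries. The control libraries spread over most of the scale and the p was 0.190, or 0.0359 without control replicate 2. Atp10d had 3 sites with p of 0.0533, 0.0982 and 0.367, and its groups overlapped at each. The p of 0.0533 was 0.0324 without maternal GE replicate 3 and 0.0498 without maternal GE replicate 4, and that of 0.0982 was 0.0118 without maternal GE replicate 2. At the first of them, chr5:72280255 in an intron, methylation was 42.9%, 35.7%, 75.8% and 100% in maternal GE libraries, against 95.8%, 89.2% and 100% in control libraries. The authors also paired Abcb6 with a site in an intron of the neighbouring gene Atg9a, chr1:75182018, where means were 84.4% ± 4.66 in maternal GE and 60.4% ± 21.7 in control libraries (SD, n = 4 and 3). Its quasi-binomial p was 0.0656.

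Of the 139 regions in the authors' region list, 1 is annotated to a transporter gene of the RNA list. It spans 65 bases with 4 CpGs at chrX:48624034-48624098 in the 5′ UTR of Slc25a14, from 586 to 650 bases past the start used for its promoter window, downstream of the promoter window printed above. In the authors' deposited table of regions the mean methylation there was 15.5% in maternal GE and 48.8% in control samples, a difference of -33.3 percentage points. The region table gives group means with no error, no listed site lies inside the region, and 66.2% of all regions were lower. Slc25a14 had a log2 fold change of 0.76 in the authors' deposited table, and its edgeR FDR of 0.317 missed the threshold. On the X chromosome 58 of 67 other listed genes were higher, and relative coverage was higher by 0.18 on the log2 scale in maternal GE libraries. The part of the X chromosome in the Slc25a14 values was not tested. Regions were also annotated to transporter genes outside the RNA list, namely Slc7a11, Slc6a8, Slc17a5 and Slc12a5. Those of Slc7a11 and Slc17a5 lie between genes, beginning at -454359 and 62156 bases from the gene start. Those of Slc6a8 and Slc12a5 lie in the 5′ UTR. By the authors' group means, maternal GE minus control was 49.5, -30.9, -57.6 and -41.6 percentage points in the order named. The Slc6a8 region is also on the X chromosome, with 16.9% in maternal GE and 47.8% in control samples.

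A further 139 listed sites were annotated to 83 transporter genes outside the RNA list, 85 higher and 54 lower in maternal GE libraries. Among them 78 lie between genes. Of the 139 sites 41 had a quasi-binomial p under 0.05 (29.5%) and 30 had groups that did not overlap (21.6%), against 31.6% and 27.8% over all listed sites. The lowest p was at chr5:8685384 in an exon of Abcb1a, which encodes a P-glycoprotein drug pump. Methylation there averaged 48.3% ± 10.3 in maternal GE libraries (SD, n = 4), while the 3 control libraries were at 0%, with 0 of 49 reads together, which allows up to 6.12%. At chr9:95387284, between genes and annotated to Slc9a9, an endosomal sodium-proton exchanger, means were 25.1% ± 5.93 in maternal GE and 78.6% ± 13.4 in control libraries (SD, n = 4 and 3). The quasi-binomial p-values of the pair were 0.000821 and 0.00104, and neither passed the adjustment. Of the next 6 by p, lower means were found at Slc44a3 (4.31% ± 5.74 in maternal GE against 74.2% ± 22.4 in control libraries), Slc17a5 (17.5% ± 15.7 against 84.7% ± 12.7) and Slc12a8 (59.8% ± 15.1 against 100% in each control library). Higher means were found at Atp11b (58.3% ± 16.3 in maternal GE against 7.35% ± 4.10 in control libraries), Slc26a8 (76.2% ± 7.41 against 45.8% ± 7.61) and Slc4a4 (94.0% ± 5.64 against 62.3% ± 10.3), all as SD with n = 4 and 3. The Slc17a5 site, chr9:78525889, is the first base of the Slc17a5 region given above and is not separate evidence.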

How the data were processed

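The members and lists were chosen with earlier results of these data known. The submitters' processing notes name STAR, HTSeq, DESeq, Bismark, Trim Galore, FastQC and R 3.6.1, and the builds GRCm38 and mm10. The step each served is not given in the sources used here. The authors' deposited RNA table gives, per the file headers, a mean normalised count over libraries (a signal), a DESeq log2 fold change with its SE and Wald score, a p-value and adjusted p-value, and edgeR log2 fold change, FDR and log2 CPM. Its 1333 lines hold 1324 genes, all with a symbol. Its last p-value and adjusted p-value imply rank 1521, so other called genes were not analysed here. The RNA values were read and counted, with no new test.

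For RRBS the authors deposited, at 4327 sites, counts of total and of methylated reads in each library, the percent methylation, q-value and p-value, and a region table with the mean fraction methylated per group, printed as percent. Every listed site has at least 10 reads per library. A quasi-binomial logistic model per site (dispersion from the Pearson chi-square with a floor of 1, F test) was fitted to the deposited counts of all listed sites, with Benjamini-Hochberg adjustment over them, in Python 3.11.15 with numpy 2.4.6, scipy 1.17.1 and pandas 2.3.3, and was tested on simulated data. The simulated sites were not selected for a group difference, so that test cannot speak for p-values in this selected list. Adjustment over a list already selected for this comparison is lenient. Intervals are 95% Wilson intervals, upper limits of a level of 0 are 3 reads of the total, and both cover counting error only. Relative coverage is the log2 of the reads at a listed site after subtracting the mean of the libraries at that site and then the autosomal median of the library. Distances and genes' positions come from RefSeq on GRCm38.p6, which shares coordinates with the files' builds. Whether an RNA and an RRBS library of the same number share a tumour is not given in the labels. Every member is named, and those of large fold (12 per direction at a mean count of at least 50), low p-value (3 per direction) or with a listed site or region are given in full. Of other transporter sites the 8 of lowest p are named. Alternatives were other thresholds, edgeR values, coverage of at least 20 reads, a chi-square reference, no dispersion floor, the replicate block and leaving out each library. Figures used matplotlib 3.10.9.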

Additional observations from a re-analysis of the deposited data

Results flagged for a closer look

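At 4 of the 22 CpG sites of transporter genes, 1 maternal GE library stood apart from the other 3 by Dixon's criterion. Chance meets it in about 1 in 20 groups of freely varying values, but at 3 of the 4 sites the other libraries are all at the upper bound of 100%, where any unmethylated read meets it, so for these the criterion shows nothing beyond the value. At the Atp11a site chr8:12898699, maternal GE replicate 2 had 98.2% (56 reads) where the other maternal GE libraries had 100%. At the Slc24a2 site chr4:87119927, maternal GE replicate 2 had 80% (20 reads) against 100% in the other 3. At the Slc24a2 site chr4:87119933 the same library had 85% against 100%, and both sites share its reads. At the Slc38a2 site chr15:96737137, maternal GE replicate 1 had 0% on 14 reads, which allow up to 21.4%, while the other maternal GE libraries lay between 47.4% and 55.6%.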

How the results depend on the processing

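In the RNA list the split of 22 higher and 18 lower transporter genes became 13 and 9 (22 genes) at a DESeq adjusted p under 0.01. It was 20 and 18 with a mean count of at least 50, and 12 of the 40 genes, each with the same sign, missed an edgeR FDR of 0.05. Of the 22 CpG sites, 2 had at least 20 reads in every library; 1 of these had a p under 0.05 and 1 had groups that did not overlap, against 437 and 407 of the 1230 listed sites with that coverage. A chi-square reference in place of the F test gave 19 sites with p under 0.05 against 15 (over all 4327 listed sites 2413 against 1369), and removing the dispersion floor gave 15 (1369). With the replicate block the count was 7, among 998 of all listed sites. The labels give a number but no shared litter or batch. The deviations of same-numbered RRBS libraries correlated at 0.022, 0.009 and -0.032, none of them the highest for that maternal GE library. Whether maternal GE and control libraries of the same number share a litter or batch is not known, and these correlations cannot decide it. Leaving out 1 library gave 10 to 13 sites with p under 0.05 (985 to 1271 over all listed sites) and 12 to 15 whose groups did not overlap (1542 to 1947 over all, against 1202 with every library), and r of 0.802 to 0.915 for the chromosome relation. Coverage of 10 to 24 reads at several sites leaves wide intervals.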
